A study of Mus musculus with 29 samples.

Results

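The miR-15/16 family was followed in gonadal white adipose tissue (gWAT) by small RNA sequencing, through 8 named miRNAs: miR-15a-5p, miR-15b-5p, miR-15b-3p, miR-16-5p, miR-195a-5p, miR-497a-5p, miR-322-5p and miR-322-3p. They were taken by name from the count table, each as 1 mature and 1 hairpin entry, which gave 16 entries of 3097 for mature and hairpin miRNAs and of 5355 for all small RNAs. Tissue came from female New Zealand Obese mice (NZO/HIBomDife) that were 10 weeks old, 15 diabetes-prone (DP) and 14 diabetes-resistant (DR), with 1 library per mouse. All mice were genetically identical and had eaten a high-fat diet for 5 weeks, after which a risk score put them in DP or DR. No gene was altered and no group was left without the diet, so DP was set against DR. The comparison asks whether the family differed between mice of unlike diabetes risk before hyperglycaemia.

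MicroRNAs are short RNAs that guide Argonaute proteins to messenger RNAs, mostly by pairing through the seed, the bases 2 to 8 from the 5′ end. The miR-15/16 family is known as a brake on the cell cycle, since its guides repress D-type and E-type cyclins, their kinases and the survival factor BCL2. Each precursor hairpin holds a 5p and a 3p arm, and in this family the 5p arm is the usual guide, while the 3p arm is mostly degraded.

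The mature sequences are shown because the seed defines the family and the bases after it tell the members apart. They are RefSeq sequences on mouse build GRCm38.p6, the assembly that mm10 denotes, and all 8 members were matched there. Capitals mark the seed.
mmu-miR-15a-5p: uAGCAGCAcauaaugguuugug
mmu-miR-15b-5p: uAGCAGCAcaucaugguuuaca
mmu-miR-16-5p: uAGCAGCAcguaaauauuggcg
mmu-miR-195a-5p: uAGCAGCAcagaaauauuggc
mmu-miR-497a-5p: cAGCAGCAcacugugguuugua
mmu-miR-322-5p: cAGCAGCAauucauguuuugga
mmu-miR-15b-3p: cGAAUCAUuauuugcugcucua
mmu-miR-322-3p: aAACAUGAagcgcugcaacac
mmu-miR-195a-3p: cCAAUAUUggcugugcugcucc

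The 6 guides of the 5p arm carried the seed AGCAGCA, as did 10 of 1679 mouse mature miRNAs in the RefSeq table. miR-15b-3p and miR-322-3p carried other seeds, so by sequence they are partner arms and not members of the seed family. miR-195a-3p, which is no member, is shown because it comes from the same hairpin as miR-195a-5p. Counting positions from 1 at the 5′ end, miR-16-5p and miR-195a-5p differed over 21 bases only by G10A and U11G (the base of miR-16-5p first). At the other end, miR-16-5p and miR-497a-5p differed at 11 of 22 bases. The treatment of reads with more than 1 matching miRNA is not given in the sources used here.

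The guides come from 4 loci. miR-15a-5p (chr14:61632075-61632096, minus strand) and 1 copy of miR-16-5p (chr14:61631936-61631957) lie in an intron of the long non-coding gene Dleu2. miR-15b-5p (chr3:69009775-69009796, plus strand), miR-15b-3p (chr3:69009813-69009834) and the second copy of miR-16-5p (chr3:69009918-69009939) lie in an intron of Smc4, a condensin subunit. The count of miR-16-5p pools both copies, which have the same sequence. miR-497a-5p (chr11:70234730-70234751, plus strand) and miR-195a-5p (chr11:70235062-70235082) lie outside any other annotated gene on their strand. miR-322-5p (chrX:53054306-53054327, minus strand) and miR-322-3p (chrX:53054269-53054289) lie beside miR-503, within the RefSeq gene C430049B03Rik.

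The DP libraries held 20385384 to 23214934 mature and hairpin counts each, and the DR libraries 20599231 to 23187920. Levels are given as CPM, which is counts scaled to a fixed library size, with TMM (trimmed means of M values) for composition, and the reads carry no molecular identifiers. Log2 fold changes are DP over DR with their standard error (SE). The test was edgeR's quasi-likelihood test on the 1162 mature and hairpin entries with a mean count above 10, p values were adjusted over all of them by the Benjamini-Hochberg method, and an entry passed at an adjusted p under 0.05. Labels number the libraries from 183 to 212 without saying what the number stands for. Of the mice numbered below 200, 10 were DP and 6 DR, and from 200 onwards 5 were DP and 8 DR, so results are also given within each part.

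Most of the family did not differ between DP and DR mice beyond the spread between mice. All 16 entries passed the filter on low counts. Only the 2 entries of miR-497a-5p passed the test, both lower in DP mice, and none passed as higher. Of all 1162 entries, 25.9% passed in either direction and 11.9% passed as lower in DP mice. Before adjustment, at p under 0.05, 3 entries of the family were higher and 3 lower. In either direction, 437 of all 1162 entries were under 0.05 before adjustment. DESeq2 called 0 higher and 3 lower, limma-voom 0 and 2, and the exact test of edgeR 0 and 0. The shares of all entries that these other tools called are not given here. The median log2 fold change of the 16 entries was -0.010, against 0.017 over all entries. Their median absolute log2 fold change was 0.089, against 0.22 over all entries. In every one of the 16 entries the range of the DP mice overlapped that of the DR mice.

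miR-16-5p was the most abundant member and ranked at place 12 among all mature miRNAs. It is the best known guide of the family and the one deleted with miR-15a in human chronic lymphocytic leukaemia. Its mature level had a lowest, median and highest value of 8333, 11346 and 12811 CPM in DP mice, against 8922, 10309 and 13552 CPM in DR mice. The groups overlapped almost fully, with the highest mouse of all in DR and the lowest in DP. DP stood over DR by a log2 fold change of 0.091 (SE 0.059, adjusted p = 0.27). The hairpin entry averaged 7893 ± 626 CPM in DP (SD, n = 15) and 7864 ± 846 CPM in DR mice (SD, n = 14), with a log2 fold change of 0.0052 (SE 0.051, adjusted p = 0.952).

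**Figure D1:**
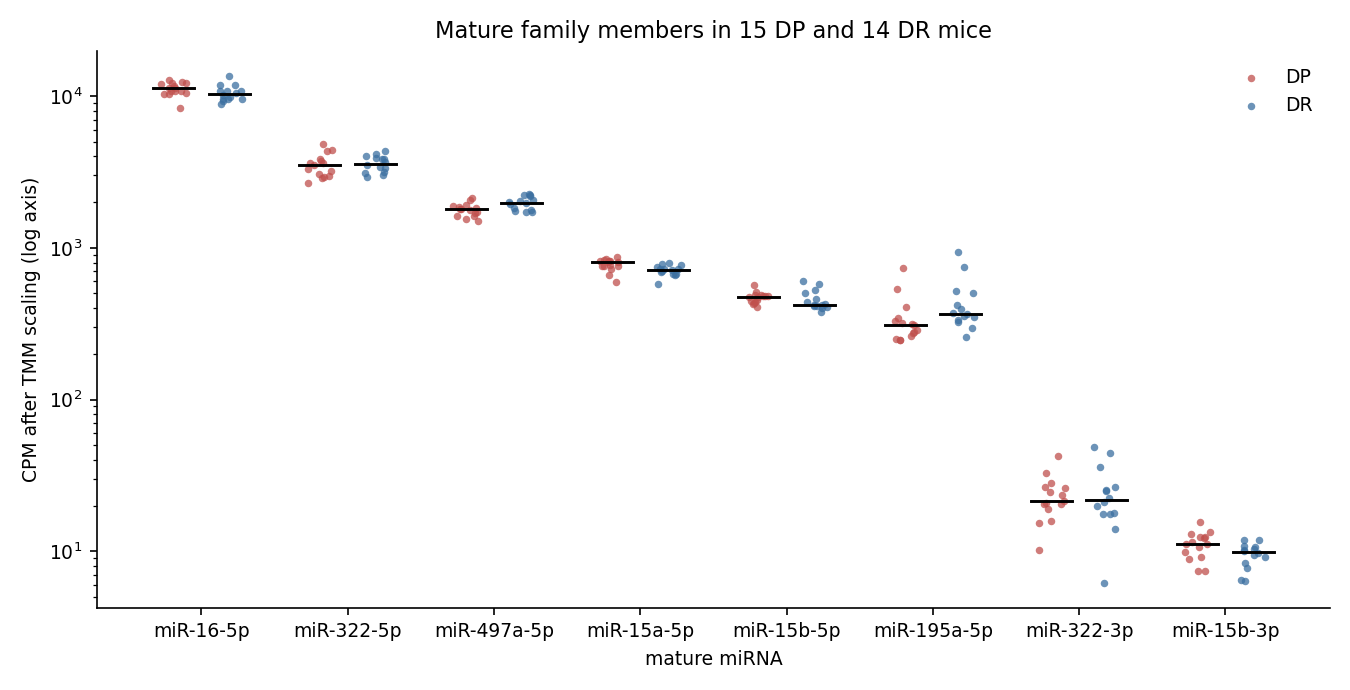
Level of each mature member in CPM on a log axis, in order of mean level. Points are mice (15 DP in red at the left, 14 DR in blue at the right) and black bars are medians. miR-16-5p averages 10849 CPM and miR-15b-3p 10.3 CPM, and DP and DR overlap in every member.

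The order of the members by level was the same in all mice for 5 of the 7 neighbouring pairs. Averaged over 29 mice, miR-16-5p (10849 CPM) stood above miR-322-5p (3558 CPM), which stood above miR-497a-5p (1879 CPM), and the ranges of these neighbours did not overlap. miR-15a-5p followed at 745 CPM and miR-15b-5p at 463 CPM. Their ranges overlapped, although miR-15a-5p was the higher in 29 of 29 mice. miR-15b-5p and miR-195a-5p (390 CPM) were not separated, since miR-15b-5p was the higher in 13 of 15 DP and 9 of 14 DR mice. The partner arms miR-322-3p (23.8 CPM) and miR-15b-3p (10.3 CPM) came last, and miR-322-3p was the higher in 27 of 29 mice. All mature members are 21 or 22 bases long, so these levels need no correction for length.

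Summed over the mature entries of the 6 guides, the seed AGCAGCA had 18078 ± 1681 CPM in DP (SD, n = 15) and 17679 ± 1368 CPM in DR mice (SD, n = 14). The DP mice ranged from 13973 to 20694 CPM and the DR mice from 15789 to 19858 CPM, so the DP range held the whole DR range. miR-16-5p supplied 61.8% ± 2.42 of this sum in DP and 59.3% ± 3.53 in DR mice, and miR-322-5p 19.4% ± 2.33 and 20.4% ± 2.62. miR-497a-5p supplied 9.90% ± 0.823 in DP and 11.2% ± 1.07 in DR mice. As a share of all mature counts, the 6 guides held 3.41% ± 0.430 in DP and 3.02% ± 0.328 in DR mice. The medians were 3.52% and 3.13%, and the ranges were 2.46% to 4.20% in DP and 2.37% to 3.53% in DR mice. The distance between the groups thus depended on the denominator. Both the sum and the share were described without a test.

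Neither of the guides that share an intron with a copy of miR-16, miR-15a-5p and miR-15b-5p, passed. miR-15a-5p, the partner of miR-16 in Dleu2, had mature levels of 597, 804 and 870.3 CPM in DP mice (lowest, median, highest), against 577, 719 and 792 CPM in DR mice. It was above the DR median in 13 of 15 DP mice, while the lowest values of both groups lay side by side. The log2 fold change of 0.12 (SE 0.051, unadjusted p = 0.0227) did not pass (adjusted p = 0.0757, and 0.0373 to 0.193 with 1 library left out). With 1 library left out it passed only without DP mouse 11 or 12 (adjusted p = 0.0373 and 0.04). It also passed when scaled by library totals alone (log2 fold change 0.20, adjusted p = 0.0124), which moves the median of all entries to 0.091. Its hairpin averaged 227 ± 28.0 CPM in DP against 215 ± 21.0 CPM in DR mice, with a log2 fold change of 0.076 (SE 0.064, adjusted p = 0.402).

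miR-15b-5p, processed from the Smc4 intron together with a copy of miR-16, had mature levels of 405, 477 and 566 CPM in DP mice, against 377, 423 and 607 CPM in DR mice. All but 1 DP mouse lay above the DR median, and yet the 2 highest mice, with 581 and 607 CPM, were DR mice. Its log2 fold change was 0.043 (SE 0.065, adjusted p = 0.662). Its hairpin had 524 ± 45.9 CPM in DP against 508 ± 54.9 CPM in DR mice (log2 fold change 0.045, SE 0.055, adjusted p = 0.575). Among the libraries numbered below 200 the mature log2 fold change was 0.19 (adjusted p = 0.0211), and among those of 200 and above it was -0.0011 (adjusted p = 0.999). miR-16-5p had a log2 fold change of 0.20 below 200 (adjusted p = 0.0152) and 0.024 at 200 and above. Whether either fold change differed between the 2 parts was not tested.

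The pair on chromosome 11, miR-497a-5p and miR-195a-5p, held the lower fold changes of the family. In mice and other mammals both guides are processed from 1 transcript and are known for halting cardiac and muscle cell division. miR-497a-5p had mature levels of 1502, 1799 and 2115 CPM in DP mice, against 1709, 1988 and 2259 CPM in DR mice. In 13 of 15 DP mice it lay below the DR median, and the ranges still overlapped between 1709 and 2115 CPM. It fell by 0.15 on the log2 scale (SE 0.055, adjusted p = 0.0387). Its hairpin had 1049, 1287 and 1548 CPM in DP mice, against 1172, 1490 and 1748 CPM in DR mice. It fell by 0.18 (SE 0.063, adjusted p = 0.038), again with 13 of 15 DP mice below the DR median. This size lies under the median absolute log2 fold change of all entries that passed, which was 0.47.

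The call on miR-497a-5p lay close to the threshold. With 1 library left out, the mature log2 fold change ranged from -0.18 to -0.13 and its adjusted p from 0.0146 to 0.103. It no longer passed without DP mouse 3, 4, 7, 8, 11, 12 or 13, or without DR mouse 1, 2, 3, 6, 10, 11, 13 or 14, which is 15 of 29 fits. The hairpin no longer passed in 17 of 29, without DP mouse 1, 3, 4, 7, 10, 11, 12 or 13 or DR mouse 1, 2, 3, 5, 6, 10, 11, 13 or 14 (adjusted p up to 0.101). Among the libraries below 200 the mature log2 fold change was -0.15 (adjusted p = 0.0725) and among those of 200 and above -0.19 (adjusted p = 0.236). The sign was thus the same in both parts, and neither part passed on its own for the mature entry. The hairpin entry passed below 200 (log2 fold change -0.21, adjusted p = 0.031) and not from 200 (-0.19, adjusted p = 0.26). Scaled by library totals alone, the mature value was -0.082 (adjusted p = 0.396). Over all other settings tried, the adjusted p of the mature entry ranged from 0.00167 to 0.396.

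miR-195a-5p varied far more between mice. Its mature level was 247, 310.02 and 741 CPM in DP mice, against 258, 369 and 932 CPM in DR mice. Among DP mice, mouse 7 (741 CPM) and mouse 12 (538 CPM) stood apart from the other 13, which reached 405 CPM. Among DR mice, mouse 14 (932 CPM) and mouse 3 (751 CPM) stood above the rest, which reached 522 CPM. The coefficient of variation was 39.0% in DP and 42.5% in DR mice, against 9.67% and 10% for its neighbour miR-497a-5p. The log2 fold change of -0.37 (SE 0.18, adjusted p = 0.141) was the lowest of the family and did not pass, and 12 of 15 DP mice were below the median of DR. Without DP mouse 7 it was -0.49 (adjusted p = 0.0251) and without DR mouse 14 it was -0.24 (adjusted p = 0.31), the ends of the range over all fits with 1 library left out. Below library number 200 it was -0.45 (adjusted p = 0.2) and from 200 it was -0.21 (adjusted p = 0.786). The hairpin had 913 ± 245.5 CPM in DP (SD, n = 15) and 1170 ± 416 CPM in DR mice (SD, n = 14), with a log2 fold change of -0.36 (SE 0.15, adjusted p = 0.0712). It passed without DP mouse 4, 7 or 12 or DR mouse 4, 7, 8 or 13 (adjusted p = 0.0193 to 0.0478 in these 7 fits, up to 0.165 in the others), and with DESeq2 (adjusted p = 0.0434).

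The other arm of the same hairpin, miR-195a-3p, behaved more evenly. Its mature level was 10.2, 12.03 and 15.8 CPM in DP mice, against 10.8, 14.2 and 17.8 CPM in DR mice. In 14 of 15 DP mice it was below the DR median, although the ranges overlapped, and the coefficient of variation was 13.1% in DP and 12.1% in DR mice. It fell by 0.23 on the log2 scale (SE 0.071, adjusted p = 0.0165), and its hairpin entry fell by 0.17 (SE 0.061, adjusted p = 0.0381). Scaled by library totals alone neither passed (-0.15, adjusted p = 0.0796, and -0.094, adjusted p = 0.304), and the hairpin did not with the exact test (adjusted p = 0.107) or no filter on low counts (adjusted p = 0.0543). With 1 library left out, the mature entry passed in all 29 fits (adjusted p = 0.00524 to 0.0368), and the hairpin did not without DP mouse 1, 7, 9 or 13 or DR mouse 2, 6 or 13 (7 of 29 fits, adjusted p up to 0.0632). Below library number 200 the mature value was -0.21 (adjusted p = 0.154) and from 200 it was -0.16 (adjusted p = 0.544), and the hairpin value was -0.17 (adjusted p = 0.156) and -0.13 (adjusted p = 0.561). Across mice, no relation of miR-195a-5p with miR-195a-3p passed a test (Pearson r = -0.128, permutation p = 0.513; Spearman rho = 0.128, p = 0.509; n = 29; r = -0.389 in DP and -0.431 in DR mice alone, and -0.0351 without the 2 mice farthest from the median of miR-195a-5p). The values had been seen when this pair was chosen, and it is 1 of 10 such relations, with an adjusted p of 0.569 for r and 0.565 for rho. The other arm of the neighbour, miR-497a-3p, had 19 mature counts in all libraries together and was too sparse to test. miR-497b, which overlaps the miR-497 hairpin on the opposite strand, had 47.

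**Figure D2:**
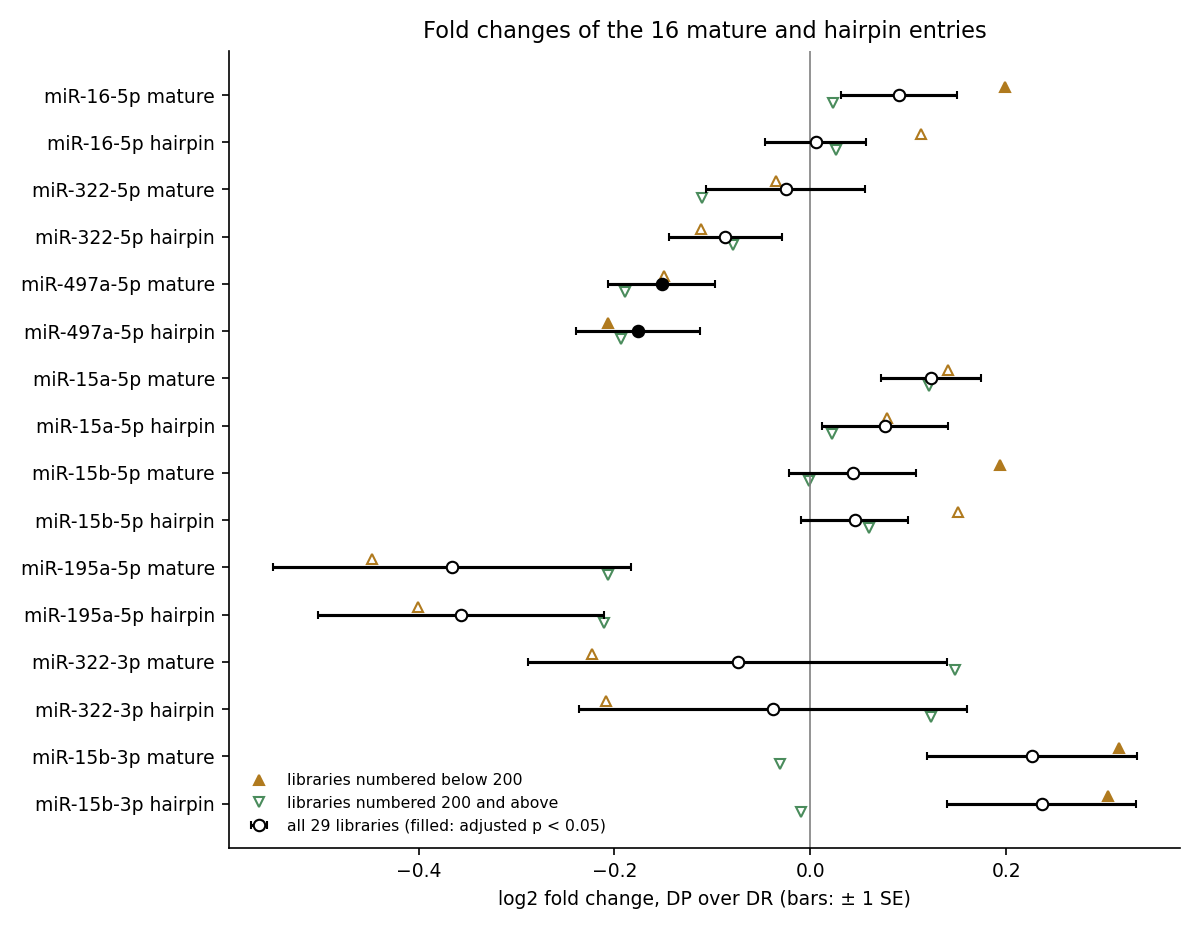
Log2 fold change (DP over DR) of the mature and hairpin entry of each member. Circles are fits over 29 libraries with bars of 1 SE, and triangles are fits on libraries numbered below 200 (pointing up) and of 200 and above (pointing down), with filled symbols for an adjusted p under 0.05. Only the 2 circles of miR-497a-5p are filled, at -0.15 and -0.18.

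miR-322-5p, the mouse counterpart of human miR-424, is the family guide of the X chromosome and is known for a role in muscle differentiation together with miR-503. Its mature level was 2684, 3502 and 4845 CPM in DP mice, against 2916, 3587 and 4337 CPM in DR mice. The DP mice spread to both sides of the DR range, and 8 of 15 lay below the DR median. The log2 fold change was -0.025 (SE 0.081, adjusted p = 0.856). Its hairpin had 1379 ± 153 CPM in DP against 1465 ± 142 CPM in DR mice (log2 fold change -0.087, SE 0.058, adjusted p = 0.278).

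Of 11 mature partners of miR-322 in the X-linked cluster (arms of miR-503, miR-351, miR-542, miR-450a and miR-450b), 10 were tested and 0 passed with edgeR's quasi-likelihood test. With that test 25.9% of all 1162 entries passed. DESeq2, limma-voom and the exact test of edgeR also called 0 of 10. Scaled by library totals alone, 0 passed, and at an unadjusted p under 0.05 2 were higher and 0 lower. At an unadjusted p under 0.05 with TMM scaling or DESeq2, the quasi-likelihood and exact tests each had 1, and DESeq2 and limma-voom 2. All of these were lower in DP mice. The one of the quasi-likelihood test was miR-503-3p, with 3.59 ± 0.386 CPM in DP against 4.01 ± 0.566 CPM in DR mice (log2 fold change -0.16, SE 0.074, adjusted p = 0.106). miR-503-5p, whose seed shares the first 6 bases AGCAGC with the family, had 6.03 ± 1.38 CPM in DP against 5.20 ± 0.766 CPM in DR mice (log2 fold change 0.21, SE 0.11, adjusted p = 0.135). The median log2 fold change of the 10 was -0.069, against 0.017 over all entries.

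The partner arms miR-15b-3p and miR-322-3p did not pass either. miR-15b-3p had mature levels of 7.40, 11.2 and 15.5 CPM in DP mice, against 6.33, 9.89 and 11.8 CPM in DR mice. The upper end was held by DP mice alone, and 5 of 15 DP mice were below the DR median. At a log2 fold change of 0.23 (SE 0.11, adjusted p = 0.119) the mature entry did not pass, nor did the hairpin with 0.24 (SE 0.096, adjusted p = 0.0704). The hairpin passed without DP mouse 12 (adjusted p = 0.0335) or 15 (adjusted p = 0.0361), out of a range of 0.0335 to 0.133 with 1 library left out, and when scaled by library totals alone (log2 fold change 0.32, adjusted p = 0.0308). Among the libraries below 200, the mature entry had a log2 fold change of 0.32 (adjusted p = 0.0121) and the hairpin 0.30 (adjusted p = 0.0115). Among those of 200 and above the values were -0.031 (adjusted p = 0.962) and -0.0100 (adjusted p = 0.982). The difference between the 2 parts was not tested.

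miR-322-3p had the widest range of the members, with a highest mouse 7.83 times the lowest, and a coefficient of variation of 33.5% in DP and 47.1% in DR mice. Its mature level was 10.2, 21.6 and 42.6 CPM in DP mice, against 6.22, 21.7 and 48.7 CPM in DR mice. The medians lay side by side and the DR mice held both extremes. The log2 fold change was -0.074 (SE 0.21, adjusted p = 0.84). DP mice 7 and 12, which stood apart in miR-195a-5p, were also the 2 highest DP mice in miR-322-3p (42.6 and 32.9 CPM). Of the DR mice that stood apart there, mouse 3 was high in miR-322-3p (44.1 CPM) and mouse 14 was not (26.5 CPM), and the highest DR mouse was mouse 6 (48.7 CPM). Over all mice, miR-195a-5p and miR-322-3p had a Pearson r of 0.479 (permutation p = 0.0101, adjusted p = 0.0564) and a Spearman rho of 0.512 (p = 0.00546, adjusted p = 0.0414), n = 29. The r was 0.703 within DP and 0.403 within DR mice, 0.628 below library number 200 and 0.282 at 200 and above, and 0.427 without the 2 mice farthest from the median of miR-195a-5p.

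Mature and hairpin entries of the same name moved together across mice. How reads were divided between them is not given in the sources used here, so both may count reads of the same molecule. The entries of 1 name, such as those of miR-497a-5p, are therefore not taken as separate observations. Pearson r over 29 mice was highest for miR-195a-5p (0.964; Spearman rho 0.941) and lowest for miR-16-5p (0.649; rho 0.553). In all 8 members the permutation p of r was 9e-05 or lower, with 1e-05 the smallest that 100000 permutations can give (adjusted p at most 0.000112), and that of rho was 0.00233 or lower. Within groups the lowest r was 0.398, for miR-15b-5p in DP mice, within the parts of library number it was 0.582, for miR-15b-5p below 200, and without the 2 mice farthest from the median of the mature entry it was 0.53, for miR-16-5p. The balance between the entries differed widely between members. Mature miR-15a-5p outnumbered its hairpin entry, with 0.291 hairpin counts per mature count in DP and 0.302 in DR mice. The hairpin entry outnumbered the mature one for miR-195a-5p (2.73 in DP, 2.70 in DR) and most for miR-15b-3p (4.80 in DP, 4.81 in DR).

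Ratios within a library need no scaling between libraries, and 17 were compared with a two-sided permutation test. None had an adjusted p under 0.05 and 1 had an unadjusted p under 0.05. That one was miR-195a-5p over miR-16-5p, with 0.0293 in DP and 0.0396 in DR mice, a difference of -0.44 on the log2 scale (p = 0.0149, adjusted p = 0.253, 13 of 15 DP mice below the DR median). Without DP mouse 7 it was -0.51 (adjusted p = 0.0415), and over all fits with 1 library left out the adjusted p ranged from 0.0415 to 0.502. It was -0.65 among the libraries below 200 and -0.18 among those of 200 and above. miR-497a-5p over miR-195a-5p was 5.46 in DP and 4.77 in DR mice (difference 0.20 on the log2 scale, p = 0.296, adjusted p = 0.615). The arm ratio 5p over 3p was 43.0 in DP and 48.3 in DR mice for miR-15b (adjusted p = 0.501) and 158 in DP and 163 in DR mice for miR-322 (adjusted p = 0.974).

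Guides of 1 transcript did not always vary together. Over all 28 pairs of mature members, 3 had an adjusted p under 0.05 for Pearson r, all positive. The closest pair was miR-497a-5p with miR-322-5p, guides of 2 chromosomes (r = 0.702, permutation p = 2e-05, adjusted p = 0.00056; rho = 0.761, p = 2e-05, adjusted p = 0.00056; n = 29). It had r = 0.877 within DP and 0.62 within DR mice, 0.479 below library number 200 and 0.815 at 200 and above, and 0.69 without the 2 mice farthest from the median of miR-497a-5p. It did not pass within DR mice (adjusted p = 0.289) or below 200 (adjusted p = 0.174). By contrast, miR-195a-5p with its neighbour miR-497a-5p had r = 0.203 (p = 0.294, adjusted p = 0.63; rho = 0.125, p = 0.52, adjusted p = 0.774), with -0.46 within DP and 0.49 within DR mice, 0.107 and 0.423 below 200 and from 200, and -0.0129 without the 2 farthest mice. miR-15b-5p with miR-16-5p had r = 0.473 (p = 0.00999, adjusted p = 0.0564; rho = 0.477, p = 0.00977, adjusted p = 0.0456), 0.359 within DP and 0.526 within DR mice, 0.609 below 200, 0.468 from 200, and 0.426 without the 2 farthest mice. miR-16-5p also comes from the chromosome 14 copy.

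The other 2 pairs that passed had a higher r within DP mice than over all mice and a lower one within DR mice, where neither passed. miR-15a-5p with miR-15b-3p had r = 0.537 (p = 0.00274, adjusted p = 0.0361; rho = 0.568, p = 0.00164, adjusted p = 0.023), with 0.697 within DP and 0.117 within DR mice, 0.689 below 200 and 0.251 from 200, and 0.59 without the 2 farthest mice. miR-15b-3p with miR-322-5p had r = 0.524 (p = 0.00387, adjusted p = 0.0361; rho = 0.502, p = 0.00592, adjusted p = 0.0414), with 0.725 within DP and 0.405 within DR mice, but 0.197 below 200 and 0.328 from 200, and 0.568 without the 2 farthest mice. Both of its members fell with library number, and it did not pass within either part. The partner arms of 1 hairpin, miR-322-5p and miR-322-3p, had r = -0.207 (p = 0.282, adjusted p = 0.63; rho = -0.361, p = 0.0564, adjusted p = 0.174), with -0.265 within DP and -0.178 within DR mice, -0.434 below 200, -0.0354 from 200 and -0.304 without the 2 farthest mice.

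**Figure D3:**
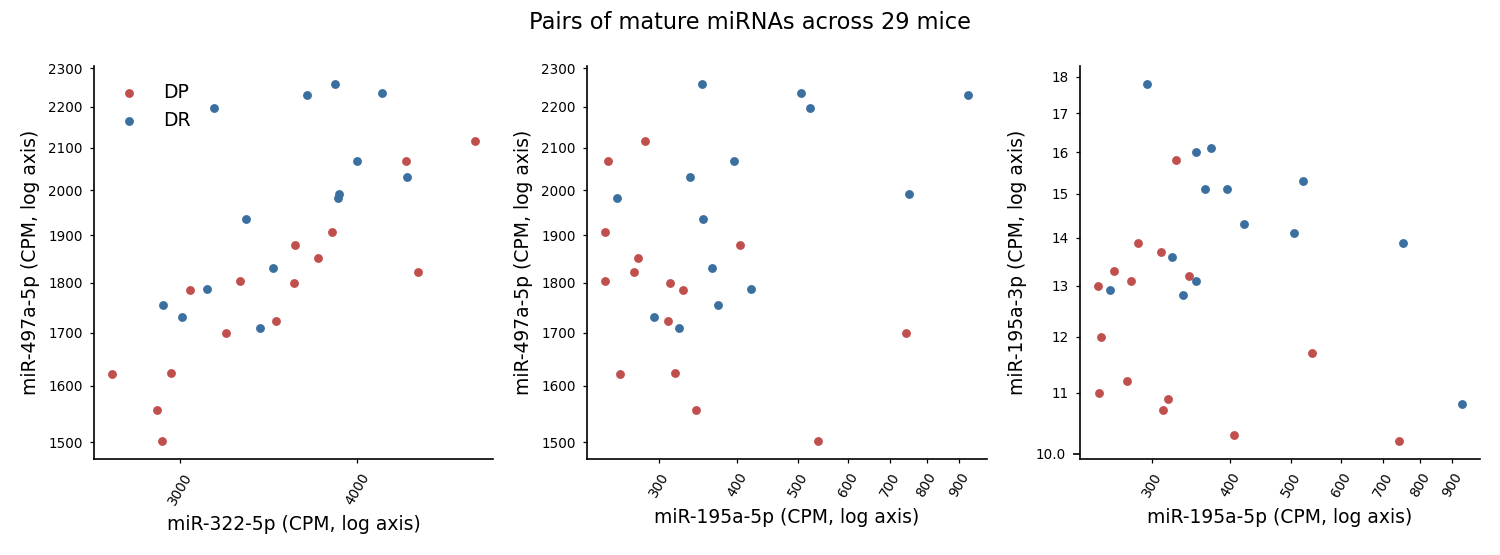
Mature levels in CPM on log axes for 3 pairs, with 1 point per mouse (DP red, DR blue). miR-497a-5p follows miR-322-5p (r = 0.702), while miR-195a-5p follows neither miR-497a-5p of the same transcript (r = 0.203) nor miR-195a-3p of the same hairpin (r = -0.128).

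Library number moved with 5 of the 16 entries (two-sided permutation test, adjusted over 16, n = 29). Entries outside the family were not tested against library number, so the count cannot be called particular to the family. The hairpin of miR-15b-3p fell with it most closely (r = -0.706, p = 2e-05, adjusted p = 0.00032; rho = -0.729, p = 1e-05; r = -0.797 within DP and -0.622 within DR mice). The hairpin of miR-15a-5p had r = -0.664 (p = 0.00016, adjusted p = 0.00128; rho = -0.69, p = 6e-05), mature miR-322-5p r = -0.613 (p = 0.00042, adjusted p = 0.00224; rho = -0.619, p = 0.00048) and mature miR-15b-3p r = -0.587 (p = 0.00095, adjusted p = 0.0038; rho = -0.562, p = 0.00193). The hairpin of miR-16-5p rose with library number (r = 0.54, p = 0.00235, adjusted p = 0.00752; rho = 0.579, p = 0.00122). All 5 relations kept their sign within DP and within DR mice, with an absolute r of at least 0.405. Leaving out the 2 libraries with the most extreme numbers, r was -0.719, -0.617, -0.531, -0.566 and 0.554 in the order given. For miR-497a-5p the relation did not pass (mature r = -0.329, p = 0.0822, adjusted p = 0.131; rho = -0.352, p = 0.0616; r = -0.687 in DP and -0.273 in DR mice alone, and -0.336 without the 2 farthest). With library number of 200 or above as a term beside the group, mature miR-497a-5p had a log2 fold change of -0.20 (adjusted p = 0.00167) and its hairpin -0.23 (adjusted p = 0.000953). With library number as a linear term the values were -0.18 (adjusted p = 0.00888) and -0.20 (adjusted p = 0.00836).

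**Figure D4:**
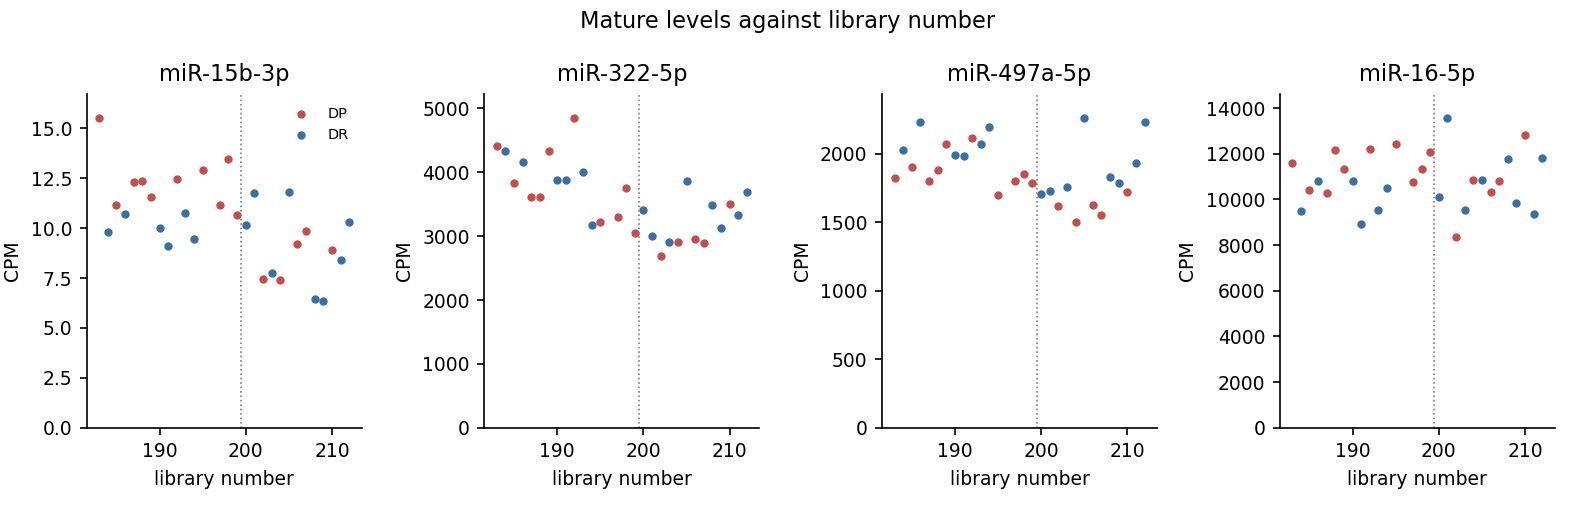
Mature level in CPM against the library number of the labels for miR-15b-3p, miR-322-5p, miR-497a-5p and miR-16-5p, with 1 point per mouse (DP red, DR blue) and a dotted line between numbers below 200 and from 200. miR-15b-3p (r = -0.587) and miR-322-5p (r = -0.613) are lower at high numbers, and most DP mice lie to the left of the line (10 of 15).

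The mature miRNAs with the pattern most like each member, by Spearman rho over 29 mice among 264 named miRNAs with a mean of at least 10 CPM, are given as a description. For miR-15b-3p it was miR-223-3p, a miRNA of granulocytes and macrophages (rho 0.835, with 0.854 within DP and 0.785 within DR mice), and miR-223-3p was also first for miR-16-5p (rho 0.574, with 0.318 in DP and 0.349 in DR mice alone). For miR-15a-5p they were miR-29b-3p (0.786), miR-21a-5p (0.702, with 0.471 in DP and 0.437 in DR mice alone) and miR-136-5p (0.668). Of these, miR-223-3p (log2 fold change 0.39, adjusted p = 0.000572), miR-21a-5p and miR-136-5p (0.41, adjusted p = 0.038) rose in DP mice. miR-195a-5p was most like miR-130a-3p (0.765), miR-30c-5p (0.754) and miR-30d-5p (0.745). miR-497a-5p was most like miR-322-5p (0.761), miR-193b-3p (0.737, with 0.486 in DP and 0.824 in DR mice alone), known from brown adipocytes, and miR-181c-5p (0.733, with 0.532 and 0.719). Lower in DP mice were miR-130a-3p (log2 fold change -0.37, adjusted p = 0.00633), miR-30c-5p (-0.70, adjusted p = 0.00445), miR-193b-3p (-0.82, adjusted p = 0.000154) and miR-181c-5p (-0.20, adjusted p = 0.0157). For miR-322-5p the next after miR-497a-5p were miR-338-3p (0.741) and miR-25-3p (0.711). miR-322-3p was most like miR-495-3p (0.767) and miR-15b-5p most like miR-541-5p (0.66). The median rho of all candidates lay between -0.0648 and 0.0367 for each member.

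Other miRNAs with a core like that of the seed did not share 1 sign of the fold change, and none of their mature entries passed with edgeR's quasi-likelihood test. miR-103-3p and miR-107-3p carry the 6 bases AGCAGC 1 position nearer to the 5′ end and are known as regulators of insulin sensitivity in liver and fat. miR-103-3p had 732 ± 263 CPM in DP against 762 ± 89.8 CPM in DR mice (log2 fold change -0.058, SE 0.12, adjusted p = 0.759), while its hairpin fell by 0.16 (SE 0.050, adjusted p = 0.0154) but did not pass with library totals alone (-0.087, adjusted p = 0.255), with the exact test (adjusted p = 0.11), or within the libraries numbered below 200 (adjusted p = 0.323) or from 200 (adjusted p = 0.36). miR-107-3p had 1.14 ± 1.17 CPM in DP against 0.597 ± 0.206 CPM in DR mice (log2 fold change 0.93, SE 0.36, adjusted p = 0.0528). Of the remaining carriers of the full seed, miR-195b had 4 hairpin counts in all libraries together.

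Other miRNAs of the cell cycle, from lists of those known to promote division and those known to restrain it, were read beside the family. Of 11 tested promoting miRNAs, 6 rose and 0 fell with edgeR's quasi-likelihood test, where 14.0% of all entries passed as higher and 11.9% as lower. DESeq2 and limma-voom also called 6 higher and the exact test 5, with 0 lower in each and 0 lower at an unadjusted p under 0.05. The list had a median log2 fold change of 0.33 against 0.017 over all entries. Those that rose included miR-21a-5p, with 23240 ± 4813 CPM in DP against 13910 ± 2244 CPM in DR mice (log2 fold change 0.74, SE 0.098, adjusted p = 1.89e-06), and miR-222-3p, which represses the inhibitor p27 (log2 fold change 1.16, SE 0.17, adjusted p = 6.53e-06). Of 13 restraining miRNAs outside the family, 2 rose (miR-34b-5p and miR-34c-5p, induced by p53), 3 fell (miR-26a-5p, miR-143-3p and miR-145a-5p) and 8 did not pass. miR-34c-5p had a log2 fold change of 1.07 (SE 0.11, adjusted p = 1.68e-07) and miR-143-3p fell by 0.47 (SE 0.064, adjusted p = 2.47e-06). The counts of the 2 lists were not tested against each other. Their members are not all independent, since the paper places miR-17, miR-18a and miR-19b in the same chromosomal cluster, and miR-143 and miR-145a in another. Of the first cluster, miR-18a-5p and miR-19b-3p rose and miR-17-5p did not pass (adjusted p = 0.0841 with edgeR's quasi-likelihood test). The others that rose were miR-20a-5p, miR-21a-5p, miR-221-3p and miR-222-3p. The 6 that rose are thus not a count of separate loci. The smooth muscle list below consists of miR-143-3p and miR-145a-5p, so these are counted in both lists.

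Some markers of the cell types of fat differed between the groups as well. For comparison, 14.0% of all 1162 entries passed as higher and 11.9% as lower with edgeR's quasi-likelihood test. Of 8 adipocyte miRNAs, 4 fell and 4 did not pass with edgeR's quasi-likelihood test. DESeq2, the exact test and library totals each also called 1 higher, the sparsely counted miR-107-3p (adjusted p = 0.0375, 0.0436 and 0.0354). Their summed level, most of it miR-378a-3p, ranged from 4299 to 6435 CPM in DP against from 6286 to 10050 CPM in DR mice. Both endothelial miRNAs fell (miR-126a-3p by 0.28 on the log2 scale, adjusted p = 0.000367, and miR-126a-5p by 0.33, adjusted p = 0.0408), with sums of 55440 to 79480 CPM in DP against 69420 to 99150 CPM in DR mice. The decrease of miR-126a-5p did not pass with limma-voom (adjusted p = 0.0527), the exact test (adjusted p = 0.0564), library totals (adjusted p = 0.142) or no filter on low counts (adjusted p = 0.0545), nor when leaving out DP mouse 6, 8, 9, 10 or 15 or DR mouse 1, 3 or 4 (8 of 29 fits, adjusted p up to 0.0663). Both smooth muscle miRNAs fell, with sums of 20400 to 29560 CPM in DP against 28080 to 42030 CPM in DR mice. The paper places them in the same chromosomal cluster as miR-378a, so the adipocyte and smooth muscle lists are not fully independent. Of 7 leukocyte miRNAs, 4 rose, 1 (miR-150-5p of lymphocytes) fell and 2 did not pass. Their sum, most of it miR-150-5p, ran the other way, with 4280 to 6426 CPM in DP against 5367 to 8694 CPM in DR mice. Of 5 erythroid miRNAs, 0 passed with edgeR's quasi-likelihood test, DESeq2, limma-voom or the exact test, with 1 at an unadjusted p under 0.05. The erythroid sum, nearly all of it miR-451a, ranged from 9726 to 22240 CPM in DP against from 12460 to 22210 CPM in DR mice. Of 3 skeletal muscle miRNAs 0 passed and 0 were at an unadjusted p under 0.05, although their sum reached 342 CPM in 1 DP and 703 CPM in 1 DR mouse. Of 6 listed miRNAs of epithelium and ovary, 5 were tested, all of them markers of epithelium. The ovary marker of the list, miR-202-5p, was not tested. Of the 5, 2 rose and 1 fell (0 fell with library totals), with sums of 28.0 to 94.8 CPM in DP against 31.1 to 38.0 CPM in DR mice. The tissue was measured as a whole, so fewer cells of a type and less RNA per cell cannot be told apart, and the part of these markers in the lower miR-497a-5p was not tested.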

How the data were processed

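Small RNA of gWAT from 15 DP and 14 DR mice was sequenced by BGI on a BGISEQ-500 instrument. The study used miRDeep2 to annotate mature and hairpin miRNAs. The submitters' processing notes name Bowtie2 and mm10. The deposited values are raw counts per small RNA, whole numbers without normalization, with 1 column per mouse. Hairpin entries carry the name of an arm, and how their reads were set apart from mature ones is not given in the sources used here. The 4 entries that name no RNA (exons, introns, intergenic sequence, repeats) entered neither library sizes nor tests, and their share of a library's counts had a median of 8.39% and a range of 6.90% to 12.1%.

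Mature and hairpin counts were analysed together with edgeR 4.0.16 in R 4.3.3 (the study's tool), a mean count above 10 (the study's minimum), TMM scaling, the quasi-likelihood F-test of DP against DR without covariates, and Benjamini-Hochberg adjustment over 1162 entries. The SE of a log2 fold change was taken as its size divided by the square root of F. Correlations used log2 CPM with a prior count of 2, and ratios used counts with 0.5 added. Permutation tests drew 100000 permutations and were two-sided. p values measure the spread between mice, and the precision of counting does not cover amplification.

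Described are all members, mature and hairpin, the other arms of their precursors, miRNAs with the same or an offset seed, the X-linked partners of miR-322, and for each member the miRNAs with the highest Spearman rho, of which the first 1 to 3 are named. The members, lists and alternatives were chosen with earlier results of these data known. Introns were taken from GENCODE vM21 on the same build. Alternatives were other scalings, filters and sets of entries, DESeq2 1.42.0, limma-voom (limma 3.58.1), the exact test of edgeR, library number (as a term, or each part alone) and leaving out each library in turn. The quasi-likelihood test and the permutation tests of differences and of correlations were tested on simulated data. DESeq2, limma-voom and the exact test were not.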

Additional observations from a re-analysis of the deposited data

How the results depend on the processing

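The number of entries of the family that passed as lower was 2 and became 0 with library totals, with no filter on low counts, with mature miRNAs only, with the exact test and among libraries of 200 and above, and 1 below 200. With 1 library left out it ranged from 0 to 3. The number that passed as higher was 0, but 2 with library totals and 4 below 200, and 0 to 2 with 1 library left out. The cause of these changes was not tested. Signs turned as follows, in no case for a value that passed. The log2 fold change of the miR-16-5p hairpin was -0.0104 with median-of-ratios size factors and with DESeq2, -0.0221 with no filter, -0.0058 with a mean count above 100 and -0.0031 without the 10 most abundant entries (-0.0194 to 0.0198 with 1 library left out). Among libraries of 200 and above it was -0.0011 for mature miR-15b-5p, -0.031 and -0.0100 for mature and hairpin miR-15b-3p, and 0.15 and 0.12 for mature and hairpin miR-322-3p. limma-voom gave 0.0059 and 0.00010 for the last 2, which ranged from -0.17 to 0.031 and from -0.15 to 0.051 with 1 library left out. Library totals gave 0.041 for mature miR-322-5p and 0.037 for the miR-322-3p hairpin. Ratio differences turned to 0.0107 (5p over 3p of miR-15b) and -0.026 (miR-497a-5p over miR-195a-5p) from 200, and to 0.091 (5p over 3p of miR-322, -0.145 to 0.0886 with 1 library left out) and -0.058 (miR-15a-5p over miR-16-5p, -0.0075 to 0.0516) below 200. Ratios that passed numbered 0, and 0 to 1 with 1 library left out. Pairs of members with an adjusted p under 0.05 numbered 3, against 5 within DP, 0 within DR, 5 below 200, 1 from 200 and 10 with library totals. Pearson r turned to -0.46 within DP and -0.0129 without the 2 farthest mice for miR-195a-5p with miR-497a-5p, -0.426 within DR for miR-15a-5p with miR-16-5p, and 0.0284 with library totals for miR-322-5p with miR-322-3p. Libraries differed little in depth, and entries with few counts in all libraries (miR-16-1-3p with 4, miR-497a-3p with 19) could not be tested. No paired analysis was possible because the labels give DP and DR mice no shared replicate numbers.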

Other observations

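The table also counts reads under 3 precursor families of Rfam that belong to these miRNAs and enter none of the comparisons above. The mir-16 family had 904.5 ± 91.4 CPM in DP (SD, n = 15) and 954 ± 84.9 CPM in DR mice (SD, n = 14), and did not pass a two-sided permutation test (difference -0.079 on the log2 scale, p = 0.144, adjusted p = 0.216). The mir-15 family had 268 counts and the mir-322 family 3 counts in all libraries together. The 3p arms of the precursors of miR-15a and miR-16-2 were low. miR-15a-3p had 1.03 ± 0.380 CPM in DP against 0.774 ± 0.272 CPM in DR mice (log2 fold change 0.41, SE 0.21, adjusted p = 0.153 with edgeR's quasi-likelihood test), and miR-16-2-3p 0.601 ± 0.190 CPM in DP against 0.613 ± 0.211 CPM in DR mice (log2 fold change -0.027, SE 0.19, adjusted p = 0.931).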
